A study of Mus musculus with 2 samples.

Results

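The genes described are 10 cytokine receptor genes other than the interleukin-2 receptor itself: Il7r, Il4ra, Il21r and Il15ra, Il6ra, Il6st and Il27ra, and Il12rb1, Il12rb2 and Il23r. They were chosen by name, as a family. Their accessible regions were those that overlapped the gene body extended by 5 kb on both sides, or whose summit had its nearest protein-coding start, within 100 kb, in the gene. By this rule the 10 genes, of 21853 protein-coding genes in GENCODE M21, held 48 of the 29415 merged regions in the IDR-thresholded peak list, which keeps peaks found again between 2 sets of reads (IDR, irreproducible discovery rate). One region counted for both Il4ra and Il21r.

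The data were ATAC-seq, which marks DNA that the Tn5 transposase can reach, from primary regulatory T (Treg) cells labelled inflammation-experienced. The mouse was an adult male aged 6 months that carried Foxp3CreERT2 and Rosa26YFP (Foxp3CreERT2 x Rosa26YFP), and the labels trace the cells to a bone marrow hematopoietic cell. Foxp3CreERT2 ties a drug-inducible Cre to Foxp3, the transcription factor of Treg cells, and Rosa26YFP is a reporter that Cre switches on. The labels name neither the inflammation, nor a drug given, nor a sort. Both samples (n = 2) are technical replicates, drawn from a single biological replicate, and there is no second condition. The deposited peak lists were not split by library, so no value below has an error between mice or libraries, the sequencing depth is unknown, and no difference could be tested. Of the 6 T cell and Treg marker genes examined (Foxp3, Il2ra, Ctla4, Ikzf2, Cd3e and Cd4), 5 had a promoter region and Cd4 did not. The shares over all protein-coding genes were 49.7% with a promoter region and 63.2% with any region. Among marker genes of B cells, myeloid cells, CD8 T cells and NK cells, Cd8b1 had a promoter region with a fold enrichment of 8.98, and Cd79a had 3 regions away from its promoter. Ms4a1, Csf1r, Lyz2, S100a8, Cd8a and Ncr1 had no region.

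Class I cytokine receptors are single-pass membrane proteins with no enzyme of their own. Their signalling chains carry Janus kinases (JAKs) on the intracellular tails, and ligand binding lets the JAKs phosphorylate STAT transcription factors, which enter the nucleus and bind DNA. The chains work in combinations: the interleukin-7, interleukin-4 and interleukin-21 receptors use the common gamma chain, encoded by Il2rg, the interleukin-6 and interleukin-27 receptors use gp130, encoded by Il6st, and the interleukin-12 and interleukin-23 receptors share the chain encoded by Il12rb1. Il15ra, the private chain that presents interleukin-15 to the interleukin-2 receptor beta and gamma chains, is grouped with them by function, although its extracellular part has the sushi fold of the interleukin-2 receptor alpha chain.

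Accessible chromatin was found at 9 of the 10 receptor genes, and 8 of them had a region at the promoter, that is, overlapping the 1000 bp on either side of a protein-coding transcript start. Over all protein-coding genes 63.2% had at least 1 region by the same rule, and 49.7% had a promoter region. The genes fell into those with many regions, namely Il6st with 15, Il21r with 10 and Il7r with 9, those with some, namely Il6ra with 5 and Il4ra with 4, and those with few, namely Il12rb1 and Il12rb2 with 2 each and Il27ra and Il15ra with 1 each. Il23r had none. The mean was 4.90 regions per receptor gene against 1.63 over all genes, and the median was 3.00 against 1.00. Of all genes, 0.389% had at least as many as Il6st, 1.49% at least as many as Il21r and 1.96% at least as many as Il7r. The receptor genes were also longer, with a median of 29585 bp against 17380 bp. Per 100 kb of gene body and flanks, Il21r held 14.9 regions, Il7r 11.6, Il4ra 10.7, Il6st 8.93, Il12rb1 8.70 and Il6ra 8.45, above the 75th percentile of all genes (5.79). The density was 4.49 at Il27ra, 2.56 at Il15ra and 2.11 at Il12rb2, where the median of all genes was 2.05.

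**Figure D1:**
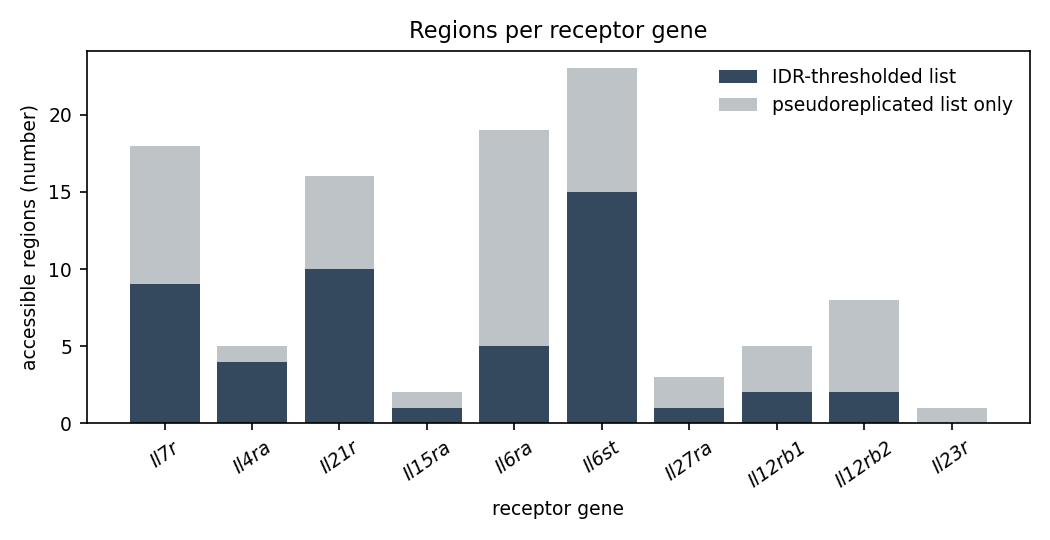
Number of accessible regions (vertical axis) at each receptor gene (horizontal axis), with regions of the IDR-thresholded list in dark and those held by the pseudoreplicated list alone stacked in light. Il6st has 15 dark regions, Il6ra gains 14 light ones and Il23r has 1 light region and no dark one.

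The height of a region is its fold enrichment over background, a linear ratio given by the authors' peak caller at the summit. As merged regions, the 48 receptor regions were low and narrow among the accessible regions of these cells: their median fold was 8.97 (interquartile range 7.39 to 13.7, lowest 4.03, highest 20.1) against 13.1 (9.30 to 17.5) for all 29415, and 33 of the 48 lay under the median of all. Their median width was 498 bp against 659 bp, and 14 of them (29.2%) held more than 1 summit against 55.9% of all regions. A merged region takes the fold of its highest summit, and with summits counted singly the medians were nearly level, at 7.23 for the receptor genes and 7.76 for all. The median −log10 p was closer, at 87.2 against 92.5. A region was classed by its summit as promoter (within 1000 bp of a protein-coding start), exon, intron or intergenic. Of the receptor regions, 10 (20.8%) were at promoters, 4 (8.33%) in exons, 15 (31.2%) in introns and 19 (39.6%) between genes. The shares over all regions were 36.7%, 4.96%, 33.7% and 24.6%. Receptor promoter regions had a median fold of 8.68 against 15.4 for promoter regions in general, and receptor introns 12.2 against 11.6. Between genes the medians were 8.86 and 12.6, and in exons 9.56 and 11.6. The median was therefore lower than that of all regions in 3 of the 4 classes, introns being the exception.

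**Figure D2:**
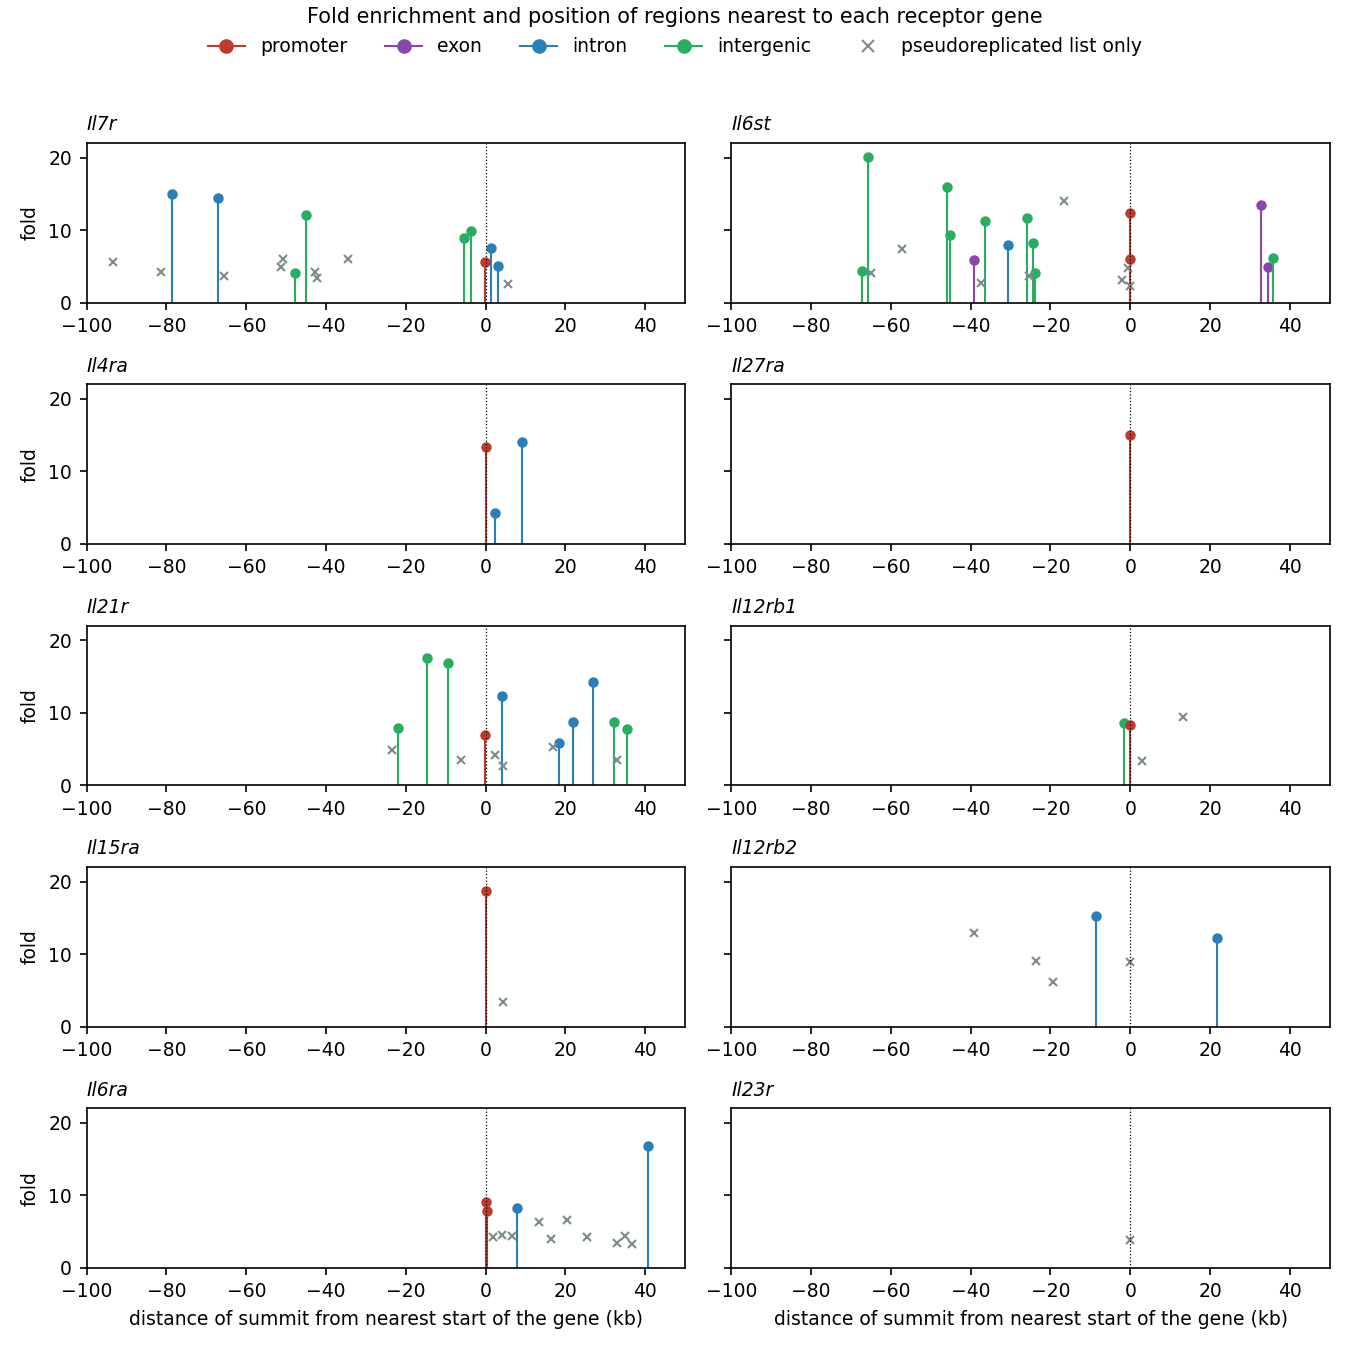
Fold enrichment (vertical axis) of each region whose nearest start belongs to the gene, against the distance of its summit from that start in kb (horizontal axis, upstream negative), in 1 panel per receptor gene. Stems are regions of the IDR-thresholded list coloured by class, and crosses are regions of the pseudoreplicated list alone. The highest stems of Il7r, Il6st, Il21r and Il6ra stand away from the start, while Il15ra and Il27ra have a single stem at it.

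The receptors of the common gamma chain cytokines, Il7r, Il4ra, Il21r and Il15ra, held 23 regions with a median fold of 8.86. Il7r encodes the interleukin-7 receptor alpha chain, which supports the survival of naive and memory T cells (chr15:9505788-9530176, minus strand). The fold of its 9 regions, listed from the 3' side of the gene toward the far upstream side, was 5.05 and 7.56 in introns, 5.56 at the promoter, 9.83, 8.86, 12.1 and 4.03 upstream, and 14.4 and 14.9 farther upstream. The promoter region, with its summit 48 bp before a start, was higher than 2 of the other 8, and the region of fold 7.56 (chr15:9527982-9528856), with its summit 1454 bp past a start, also reached into the promoter window. The highest regions, chr15:9596400-9597480 and chr15:9608094-9608536, lay 66975 and 78533 bp upstream in introns of the neighbouring gene Spef2. At 78533 bp the second was the farthest from its start of all receptor regions. The −log10 p ordered the regions otherwise. It was 126 and 76.4 at these 2 regions, and greatest at chr15:9574627-9575409, with 187 (fold 12.1). The region chr15:9533272-9533833 peaked 3671 bp before the start with a fold of 9.83; an enhancer upstream of Il7r that binds Foxo1 is known in T cells, and whether the region is that element was not tested. The sequence 100 bases to each side of the summit is printed for the highest of these regions and for this one, on the plus strand of GRCm38, with matches to any of the 13 motif families described further on in capitals.
Il7r, chr15:9608268-9608468: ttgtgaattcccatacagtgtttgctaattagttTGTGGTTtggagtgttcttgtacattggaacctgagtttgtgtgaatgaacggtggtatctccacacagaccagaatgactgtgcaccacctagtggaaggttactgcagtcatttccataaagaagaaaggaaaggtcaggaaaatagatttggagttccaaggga
Il7r, chr15:9533406-9533606: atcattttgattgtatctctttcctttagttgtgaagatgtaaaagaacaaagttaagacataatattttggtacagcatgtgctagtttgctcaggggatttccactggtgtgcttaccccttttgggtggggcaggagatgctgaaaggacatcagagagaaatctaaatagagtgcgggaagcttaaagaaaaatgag
The farther window held the RUNX letters, 66 bases before the summit, and the nearer one matched no family. Over its whole length the nearer region held the letters of TCF1 and LEF1, GATA and E-box once each and no forkhead match.

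Il4ra, the signalling chain for interleukin-4 and interleukin-13 (chr7:125552120-125579474, plus strand), and Il21r, the interleukin-21 receptor (chr7:125603429-125633570, plus strand), are neighbours. Il4ra had a promoter region of fold 13.3 with its summit 34 bp before a start, intronic regions of 4.28 and 14.1, and the region chr7:125580998-125581874 of fold 7.83, which lay within 5 kb of its 3' end and had its nearest start, 21881 bp away, in Il21r. The 23954 bp between the genes held 4 summits, with folds of 7.83, 17.6, 16.9 and, at the Il21r promoter, 6.90. The regions of fold 17.6 (chr7:125588679-125589174, 14583 bp before the Il21r start) and 16.9 (chr7:125593758-125594406, 9445 bp before it) were the highest at Il21r and were higher than 75.3% and 72.2% of all regions. The first of them lay 9205 bp past the 3' end of Il4ra, and was the 1 region between 5 and 10 kb from any receptor gene body that the rule did not give to that gene. Inside Il21r, the intronic folds were 12.3, 5.75, 8.66 and 14.2, and beyond its 3' end 8.70 and 7.77. The windows around the highest region outside the promoters of each gene differed in their letters: that of Il4ra held a STAT match and E-box matches, and that of Il21r held none of the 13 families.
Il4ra, chr7:125561355-125561555: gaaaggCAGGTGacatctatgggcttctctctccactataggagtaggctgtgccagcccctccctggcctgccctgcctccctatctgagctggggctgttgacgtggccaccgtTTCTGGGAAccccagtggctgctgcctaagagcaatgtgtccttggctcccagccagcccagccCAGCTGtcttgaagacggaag
Il21r, chr7:125588811-125589011: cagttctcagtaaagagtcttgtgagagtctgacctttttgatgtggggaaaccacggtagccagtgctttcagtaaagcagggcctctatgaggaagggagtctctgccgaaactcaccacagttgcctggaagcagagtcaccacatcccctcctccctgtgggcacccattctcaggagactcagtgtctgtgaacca

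Il15ra (chr2:11705290-11734317, plus strand) had 1 region, chr2:11705181-11706369, with a fold of 18.7, 4 summits and a width of 1189 bp and a summit 17 bp past a start. It was the highest receptor promoter. Il15ra lies 12096 bp downstream of Il2ra, and no region of the IDR-thresholded or the pseudoreplicated list had its summit between the genes, whereas Il2ra itself had 8 regions. The promoter of Il2rg, the partner chain of this group, had a fold of 17.6 and no further region.

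The receptors that signal through gp130 held 21 regions with a median fold of 9.09. Il6st encodes gp130 (chr13:112464070-112510086, plus strand) and had the most regions of the 10 genes. Of its 15 regions, 10 lay upstream at distances of 23989 to 67295 bp, with folds from 4.11 to 20.1. The highest, chr13:112398017-112398592, peaked 65755 bp before a start with a fold of 20.1 and was higher than 85.4% of all regions. The next highest had a fold of 15.9. One upstream region lay in an exon of the long noncoding RNA Gm48876 (fold 5.84) and another in an intron of Gm48879 (7.87). The main promoter region, 40 bp before the first start, had a fold of 12.4, and a second one at an internal start had 6.00. Near the 3' end of the gene, regions of 13.5 and 4.88 had their summits in an annotated untranslated exon, and one of 6.11 peaked just past the gene. The window of the highest region held none of the exact letters searched for in the 13 families. For ETS these were CAGGAAG alone. The stretch cggaagtg in this window shares GGAAG with them and was not counted.
Il6st, chr13:112398215-112398415: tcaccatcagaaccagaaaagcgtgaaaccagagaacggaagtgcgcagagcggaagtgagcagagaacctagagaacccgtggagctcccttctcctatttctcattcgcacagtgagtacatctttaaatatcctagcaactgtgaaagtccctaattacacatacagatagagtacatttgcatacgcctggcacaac

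Il6ra, the interleukin-6 receptor alpha chain (chr3:89864059-89913196, minus strand), had 5 regions. At the promoter, 2 separate regions had summits 26 bp before and 299 bp past a start, with folds of 9.09 and 7.87. The first summit also lies within Gm42809, annotated as antisense, and whether the region belongs to Il6ra, to Gm42809 or to both cannot be told. The highest, chr3:89872189-89872692, lay in an intron 40746 bp past a start with a fold of 16.8 and a −log10 p of 352, the greatest of the 48 regions. The others were an intronic one of 8.30 and one of 13.3 in an untranslated exon near the 3' end (chr3:89864109-89864488), whose nearest start belongs to the gene She. The window of the intronic region held an AP-1 match 46 bases before the summit, and 2 E-box matches.
Il6ra, chr3:89872316-89872516: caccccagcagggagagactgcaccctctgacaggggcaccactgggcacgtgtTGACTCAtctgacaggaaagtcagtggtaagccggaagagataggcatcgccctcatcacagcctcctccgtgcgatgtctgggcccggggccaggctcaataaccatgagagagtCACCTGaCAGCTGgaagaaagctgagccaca
Il27ra, the specific chain of the interleukin-27 receptor (chr8:84030294-84042589, minus strand), had a single region at its promoter, chr8:84042111-84043031, with a fold of 15 and a summit 13 bp before the start. The gp130 group thus held both the gene with the most regions and a gene with a promoter region alone.

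The interleukin-12 and interleukin-23 receptor genes had the fewest regions, 4 over 3 genes, with a median fold of 10.4. The −log10 p of the 4 regions ran from 46.7 to 64.2, under the medians of the receptor regions (87.2) and of all regions (92.5). Il12rb1, the shared chain (chr8:70808449-70821424, plus strand), had a promoter region of fold 8.27 and one of 8.62 that peaked 1693 bp before a start. The start of the neighbouring gene Mast3 is nearly as close to the second region, on its other side. There the pseudoreplicated list alone had a region of fold 5.41, with its summit 7 bp before the Mast3 start. Il12rb2, the chain specific to interleukin-12 and a mark of Th1 cells (chr6:67291318-67376188, minus strand), had 2 intronic regions, chr6:67347973-67348572 with a fold of 15.2 and chr6:67317719-67318180 with 12.2, and no promoter region. Il23r, the specific chain of the interleukin-23 receptor and characteristic of Th17 cells (chr6:67422932-67491855, minus strand), had no region in its 68924 bp, and the nearest summit was 40097 bp from its start. No region lay in the 46743 bp between these neighbouring genes either. Both Il12rb2 regions held the letters of TCF1 and LEF1: 5 bases before the summit in the first, with RUNX letters 36 bases and NFAT letters 92 bases past it, and on both sides of the summit in the second, with ETS letters beside the summit. The Il12rb1 window held ETS, TCF1 and LEF1, KLF and ROR letters.
Il12rb2, chr6:67348089-67348289: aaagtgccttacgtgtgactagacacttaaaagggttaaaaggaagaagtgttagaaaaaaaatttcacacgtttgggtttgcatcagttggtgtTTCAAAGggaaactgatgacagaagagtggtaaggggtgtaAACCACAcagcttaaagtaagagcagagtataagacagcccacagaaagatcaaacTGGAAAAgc
Il12rb1, chr8:70806656-70806856: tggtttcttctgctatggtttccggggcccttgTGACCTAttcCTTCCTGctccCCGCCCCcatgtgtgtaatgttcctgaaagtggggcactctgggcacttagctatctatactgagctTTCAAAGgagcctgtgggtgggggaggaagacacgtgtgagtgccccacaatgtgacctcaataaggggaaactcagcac

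More regions stood in the same stretch in the pseudoreplicated list. This is a larger list, where all 10 receptor genes had a promoter region (55.3% of all protein-coding genes). Il12rb2 had one of fold 8.85 at its internal start, and Il23r one of 3.79 with a −log10 p of 6.25 and a summit 49 bp before the start. Between the genes were 3 more, with folds of 6.13, 9.01 and 12.9. The authors' deposited ranking gave them an IDR of 0.148 at the Il12rb2 start, 0.357 at the Il23r start, and 0.357, 0.0711 and 0.175 between the genes. In the same deposited ranking the −log10 p in the 2 sets was 10.2 and 16.8 at the Il12rb2 start, 5.44 and 3.07 at the Il23r start, and 30.6 and 12.3 at the highest of the 3. The 250 bases upstream of the Il23r start are printed from RefSeq (GRCm38.p6) on the minus strand, the strand of the gene, because this promoter is the one that the thresholded list leaves without any region nearby. They hold NFAT letters and, 67 bases before the start, ROR letters. How common these letters are in the 250 bases upstream of other genes is not given here.
Il23r, chr6:67491856-67492105: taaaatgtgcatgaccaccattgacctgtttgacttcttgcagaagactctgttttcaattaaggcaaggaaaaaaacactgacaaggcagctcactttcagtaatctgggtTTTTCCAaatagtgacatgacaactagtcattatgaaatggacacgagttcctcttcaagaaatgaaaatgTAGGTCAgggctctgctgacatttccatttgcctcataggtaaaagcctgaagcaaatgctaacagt

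Over all 10 genes the pseudoreplicated list had 98 regions, among them all of the 48, and the other 50 had a median fold of 4.24 (lowest 2.30, highest 14.0), against 5.25 for all 23608 regions held by that list alone. They fell unevenly: Il6ra had 14 of them, Il7r 9, Il6st 8, and Il4ra, Il15ra and Il23r 1 each, that of Il4ra counting for Il21r as well. With them Il6ra, which had 5 regions, came to 19, more than Il7r with 18. The highest, chr13:112446997-112447467 upstream of Il6st, had a fold of 14.0 and an IDR of 0.167, with a −log10 p of 40.4 and 14.5 in the ranked sets. In the authors' deposited ranking, in 46 of the 48 thresholded regions the −log10 p of the highest summit lay within 2-fold between the sets, against 84.9% of the 58249 ranked summits with an IDR of 0.05 or less. The exceptions were the Il6st region in the Gm48876 exon (59.2 and 27.5) and the Il21r region just past its 3' end (37.2 and 87.5). The 84.9% counts every summit, weaker ones of a region included, so the 2 values are not of like kind. The median ratio between the sets was 1.27 for the receptor summits and 1.27 for the ranked summits. Whether the sets are the libraries is not stated.

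**Figure D3:**
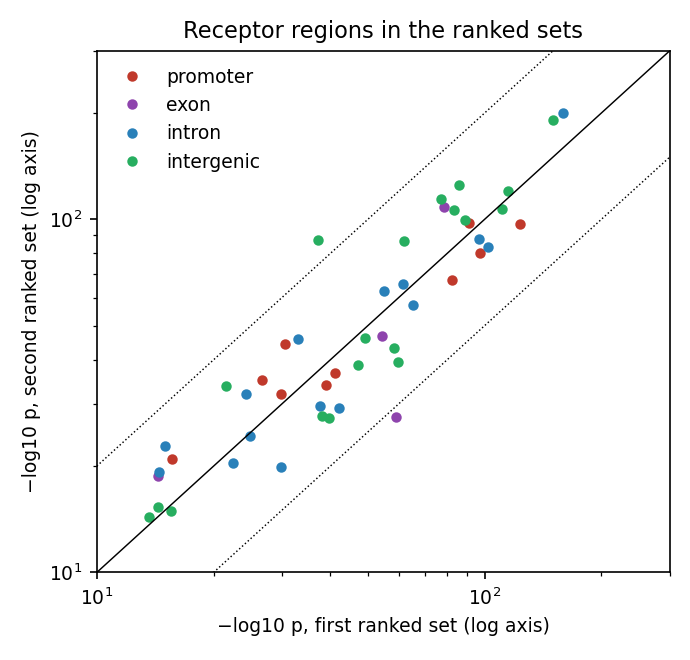
The −log10 p of the highest summit of each of the 48 receptor regions in the first (horizontal) and second (vertical) ranked set, both on log axes, coloured by class, with the line of equality and dotted lines at 2-fold. All but 2 points lie between the dotted lines, and the largest ratio is 2.36, at the Il21r region past its 3' end.

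Among the 8 receptor genes with a promoter region, the highest fold of a region overlapping the promoter window was 18.7 at Il15ra, 15 at Il27ra, 13.3 at Il4ra and 12.4 at Il6st. It was 9.09 at Il6ra, 8.27 at Il12rb1, 7.56 at Il7r and 6.90 at Il21r. The Il7r value is from the intronic region that peaked 1454 bp past a start. The Il7r region that peaked 48 bp before a start had 5.56, lower than Il21r. Their median was 10.7, against 16.4 (interquartile range 12.4 to 20.5) over all genes with a promoter region, and 7 of the 8 lay under that median. The Il21r promoter exceeded 2.77% of all accessible promoters, Il7r 3.94%, Il12rb1 5.94% and Il6ra 8.62%. With no replicate error, neighbours in this order cannot be shown to differ. The genes with the highest promoters, Il15ra and Il27ra, had no other region, and Il21r and Il7r, with the lowest, had 10 and 9. The order of the others did not follow this: Il6st, with a promoter fold of 12.4, had the most regions, 15, and Il12rb1, with 8.27, had 2. Promoter sequence, matched in RefSeq for 8 of the 10 genes, was poor in CpG at Il7r, with an observed over expected ratio of 0.0647, at Il23r (0.145) and at Il21r (0.298). It was rich in CpG at Il6st (0.943), Il4ra (0.935) and Il6ra (0.769), where the median gene had 0.631. Il15ra, with the highest promoter, had 0.601, and Il12rb2, with no promoter region, had 0.570. With the lower 50% of the list by fold left out, 3 of the 10 receptor genes kept a promoter region, against 35.4% of all genes. The count of 3 is near the share of all genes.

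**Figure D4:**
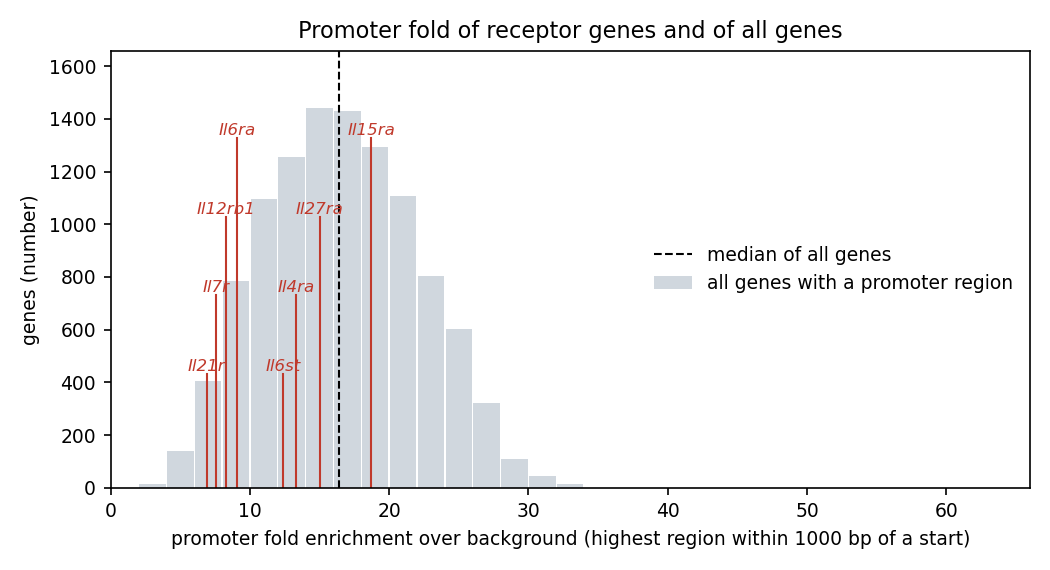
Distribution of the promoter fold enrichment over background (horizontal axis, bins of 2) over all genes with a promoter region (grey bars, number of genes on the vertical axis, dashed line at the median of 16.4). Red lines mark the 8 receptor genes, their height serving only to separate the names; Il15ra alone is right of the median.

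Motif letters were counted within 100 bp of the 48 summits on both strands, and set beside the share of all 29415 regions with the same letters in the same window. Only the exact letters given for each family were searched for, so other forms of a site were not counted. STAT letters (TTCNNNGAA), the site of the factors that these receptors activate, were found in 7 of the 48 (14.6%) against 6.12% of all regions. All 7 regions lay outside promoters, where the shares were 18.4% of 38 and 7.17%. Of the 7, 4 were in the Il4ra and Il21r neighbourhood: both Il4ra introns, the region between the genes that counts for both, and the region 9445 bp before the Il21r start. A further 2 were upstream of Il6st and 1 upstream of Il7r. The interleukin-12 and interleukin-23 receptor genes had none. Of these matches, 6 are printed with their surroundings on the plus strand of GRCm38 and the STAT letters in capitals.
Il4ra intron, chr7:125554606-125554644: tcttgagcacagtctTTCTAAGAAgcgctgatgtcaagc
Il4ra intron, chr7:125561456-125561494: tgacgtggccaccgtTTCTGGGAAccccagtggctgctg
Il4ra to Il21r, chr7:125581596-125581634: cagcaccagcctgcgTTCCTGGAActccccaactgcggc
Il21r upstream, chr7:125594103-125594141: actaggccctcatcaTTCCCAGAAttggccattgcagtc
Il6st upstream, chr13:112439519-112439556: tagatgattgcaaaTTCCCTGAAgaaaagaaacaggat
Il7r upstream, chr15:9577464-9577502: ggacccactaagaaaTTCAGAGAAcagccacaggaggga
The distances from the first letter to the summit ranged from 2 bases at the region between Il4ra and Il21r to 86 at the Il6st region printed. Within 50 bp of the summit, 5 regions (10.4% against 2.78%) held STAT letters, and in the whole regions 13 (27.1% against 18.0%). These are counts of letters in few regions, without a test, and say nothing of binding.

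The letters of other T cell factors were spread over the genes. RUNX letters (TGTGGTT) were in 8 receptor regions (16.7% against 9.39%), 3 of them at Il7r counting its promoter, 2 at Il6st, 2 at Il21r and 1 at Il12rb2. AP-1 letters (TGANTCA) were in 8 (16.7% against 9.81%), among them the promoters of Il15ra and Il6ra. TCF1 and LEF1 letters (ATCAAAG or TTCAAAG) were in 6 (12.5% against 7.87%), ETS letters (CAGGAAG) in 13 (27.1% against 21.9%) and NFAT letters (TGGAAAA) in 3 (6.25% against 3.48%). The shares were near those of all regions for forkhead (TGTTTAC, 2 regions or 4.17% against 3.06%), IRF (GAAANTGAA, 1 region against 3.20%), ROR (TAGGTCA, 1 region against 1.50%) and the CTCF core (letters CCAGGGGGC or CTAGGGGGC, 1 region against 2.11%). They were lower for KLF (GGGTGTGG or GGGGCGG, 10.4% against 19.5%) and E-box (CAGCTG or CAGGTG, 20.8% against 25.2%). The letters AGATAAG, the site of the zinc finger factors named for GATA, were in 0 regions against 2.27%. A single region is 2.08% of the 48, so a gap of a few percent, as for NFAT or AGATAAG, comes to 1 or 2 regions. Outside promoters (38 receptor regions) the shares were 18.4% against 13.0% for RUNX, 15.8% against 13.4% for AP-1, 26.3% against 27.5% for ETS and 5.26% against 7.97% for KLF. They were 15.8% against 10.5% for TCF1 and LEF1, 7.89% against 4.44% for NFAT, 21.1% against 27.7% for E-box and 0 against 3.06% for the AGATAAG letters. The gap to all regions was smaller outside promoters for the first 4 of these families and larger for the other 4.

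**Figure D5:**
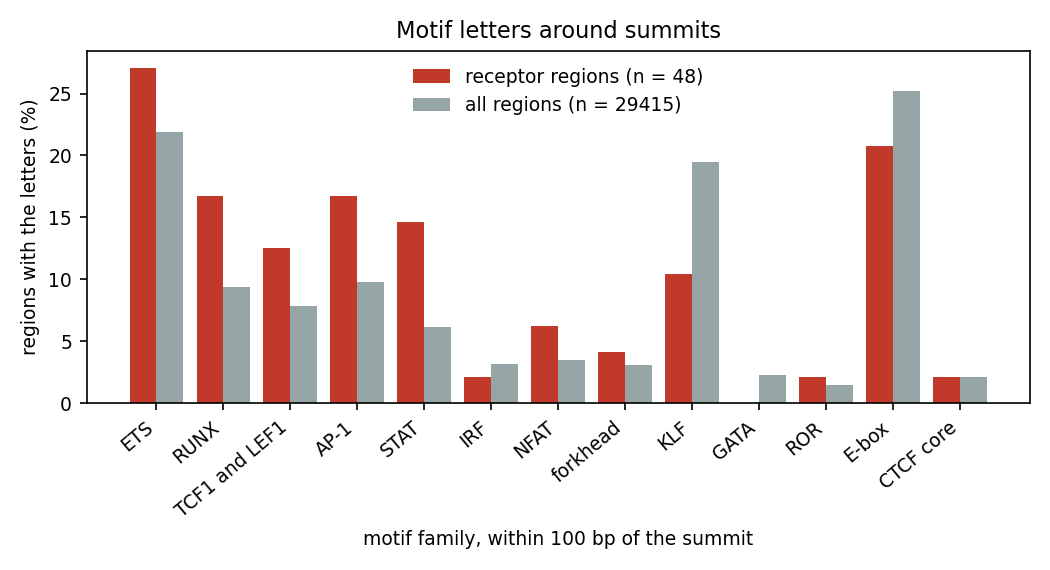
Share of regions with the letters of each motif family within 100 bp of the summit (vertical axis, percent), for the 48 receptor regions (red) and all 29415 regions (grey), by family (horizontal axis). STAT letters stand at 14.6% against 6.12% and KLF letters at 10.4% against 19.5%.

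The rest of the pathway was read from lists of its genes. Over all protein-coding genes, 49.7% had a promoter region and 63.2% any region, and the counts below stand beside these shares. All 11 JAK and STAT genes had a promoter region, with a median fold of 14.5, the highest at Stat2 (28.3) and the lowest at Jak2 (7.83). Jak1, the kinase used by most of these receptors, had 16 regions, and Stat2 had 1. Stat4, which interleukin-12 activates, had 9 regions and a promoter fold of 8.49, and Stat6, which interleukin-4 activates, had 2 and 14.5. Of 24 other receptor chains, 8 had a promoter region, below the share of all genes, and 16 any region, near that share. Their mean was 1.71 regions per gene, close to the 1.63 of all genes, against 4.90 for the 10 receptor genes here and 5.64 for the JAK and STAT genes. The highest promoter was Il2rg (17.6) and the lowest Crlf2 (6.96), the receptor chain for thymic stromal lymphopoietin that pairs with Il7r. Neither Il31ra, the gene beside Il6st, nor Il13ra1, which pairs with Il4ra, had a region. Of the 13 ligand genes, 4 had a promoter region: Il15 (16.1), Il4 (11.1), Il21 (8.92) and Ebi3 (7.98), which encodes a subunit of interleukin-27 and interleukin-35. Il21 had 6 regions, the most of the ligands, and Il7, Il6, Il11, Il12b and Il27 had none. An accessible region is not a measure of expression.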

How the data were processed

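The data were 3 peak lists on mm10 (pseudoreplicated, IDR-thresholded and IDR-ranked) that the text supplied for each sample traces to 1 alignment file. No list names a library, and both samples point to the same lists, which were taken as pooled. The sources used here do not give the aligner, peak caller, read filters, Tn5 shift or depth. Each peak's fold enrichment (a linear ratio over an unstated background) and −log10 p are the authors' deposited values, with units read from the values and column order. A local background would tie the fold to its surroundings. The IDR was computed from a deposited score, the −log10 of the global IDR.

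Overlapping or touching peaks were merged, and the peak of greatest fold gave the summit. Regions were assigned with GENCODE M21 (GRCm38; 0 regions ran past a chromosome end) in Python 3.11.15 with pandas 2.3.3. Exons and introns are those of any annotated gene, and coordinates count from 1. The receptor genes, lists and motifs were chosen with earlier results of these data known. All receptor genes are named, as are their highest, promoter and shared regions. Genes of other lists are named if highest, lowest or among 5 or fewer. Other genes and regions, such as Stat4, Stat6, Il31ra, Il13ra1 and the Il7r region nearest upstream, were named after their values were seen. Sequences came from the GRCm38.p6 reference and RefSeq's promoter table, which held 8 of the 10 genes (not Il12rb1 or Il27ra). A marker gene and a sequence are not reported here. Merging and assignment were tested on simulated data. With 1 biological replicate no test was possible. Alternatives were other lists, a stricter fold, single summits, and other flanks, distances, promoter windows and motif windows.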

Additional observations from a re-analysis of the deposited data

How the results depend on the processing

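The values depended mainly on which peaks were counted. In the pseudoreplicated list the receptor genes had 98 regions (10 per gene) with a median fold of 5.96 (8.40 for all regions of that list). There 7 of the 13 ligand genes had a promoter region, against 55.3% of all genes. In the upper 50% of regions by fold the receptor genes had 15 regions (1.5 per gene) with a median fold of 15 (17.5 for all). Promoter regions remained at 3 receptor genes, 6 JAK and STAT genes, 3 other receptor chains and 1 ligand gene, where 35.4% of all genes kept one. With summits counted singly there were 74 (7.70 per gene), median fold 7.23 (7.76 for all). The receptor median lay under that of all regions in each of these lists, by the least with single summits. With other flanks, distances and promoter windows, the counts of regions and promoters stayed within 1.5 times. The ranked list limited to an IDR of 0.05 gave the same counts. It holds nearly the same summits as the thresholded list (58249 against 58138), so it is not an independent check. Motif counts moved with the window: within 50 bp they were 5 for RUNX (10.4% against 6.35% of all regions), 4 for E-box (8.33% against 13.7%), 1 for forkhead (2.08% against 1.48%) and 0 for IRF, NFAT and ROR (2.03%, 1.44% and 0.741% of all). In whole regions they were 27 for E-box (56.2% against 59.9%), 13 for STAT (27.1% against 18.0%), 13 for TCF1 and LEF1 (27.1% against 21.6%), 8 for KLF (16.7% against 34.1%), 7 for NFAT (14.6% against 13.5%), 5 for GATA (10.4% against 7.15%), 4 for forkhead (8.33% against 8.85%), 3 for IRF (6.25% against 6.87%) and 2 for the CTCF core (4.17% against 3.56%). The GATA count thus went from 0 within 100 bp (2.27% of all regions) to 5. Counts this small do not show a share under or over that of all regions. These shifts follow from which peaks, or how many bases, are counted. No paired analysis was possible because there was 1 group and no list held values by library, and for the same reason no replicate could be left out.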

Other observations

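The 50 receptor regions held by the pseudoreplicated list alone had a median fold of 4.24, and some of them stood higher. All 3 regions between Il12rb2 and Il23r, and the region of fold 14.0 upstream of Il6st, were higher than the median fold of 5.25 of regions that only the pseudoreplicated list held. The region past the 3' end of Il12rb1 (chr8:70821593-70821841) had a fold of 9.35, above both thresholded regions of that gene, and an IDR of 0.183. Of the thresholded receptor regions, the one nearest the limit was the Il21r intronic region chr7:125621658-125622024, with an IDR of 0.0439 and a fold of 5.75.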
